A study of Danio rerio with 4 samples.

Results

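Skin wounds of adult zebrafish at 6 days post wounding (dpw) were set against wounds at 4 dpw, to ask which cells and which transcripts differ between the time when the granulation tissue shrinks and the time when it is at its largest. Granulation tissue is the temporary tissue of macrophages, fibroblasts, vessels and fresh extracellular matrix that fills a wound beneath the new epidermis, and in zebrafish it disappears without leaving a scar. The skin of the fish also carries scales, thin mineralised plates that are laid down by osteoblast-like cells of the dermis in contact with the overlying epidermis, and the laser that made these wounds removed them together with the dermis. A complete epidermis in turn needs cholesterol and tight junctions for its barrier.

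The comparison rests on 15629 of the 29185 cells that passed the filters in the series, 8314 of the 6 dpw wound and 7315 of the 4 dpw wound. A cell was kept when it had 500 to 30000 unique molecular identifiers (UMIs, 1 for each captured transcript), 200 to 4500 genes and less than 25% mitochondrial UMIs. Both libraries came from wild-type adult fish with full-thickness laser wounds that were not treated otherwise. The sample labels give the wounds as 2 mm across, the paper's methods as about 3 mm. Each library was pooled from 3 fish, punched out with a 4 mm biopsy punch, dissociated with Liberase and run as 1 droplet library. The punch was wider than the wound, so that both samples may also hold neighbouring skin and whatever tissue lay under it. A 2 dpw wound punched in the same way and unwounded wild-type skin, which was scraped off instead, are given only as side values. With 1 library for each time there is no replicate, and hence no test and no p-value anywhere in the comparison. Levels are CPM, the UMIs of a gene scaled to a common total over the tissue or over a cell class, a ratio is the CPM at 6 dpw over the CPM at 4 dpw, and the values in brackets after it are exact 95% limits that cover counting error only, not differences between fish or wounds. A gene was called higher or lower when its ratio was at least 2 or at most 0.5, provided that 1 of the libraries had 100 UMIs of it or more.

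The 2 libraries were of similar depth, with medians of 3979 UMIs at 6 dpw and 4190 UMIs at 4 dpw per cell and totals of 56867519 UMIs at 6 dpw and 53270696 UMIs at 4 dpw. They shared 17 cell barcodes, 0.204% of the cells at 6 dpw and 0.232% of those at 4 dpw. Cells above the upper limits, left out here, made up 2.33% of the deposited cells and 14.6% of the UMIs at 6 dpw, against 5.60% of the cells and 27.9% of the UMIs at 4 dpw. The 4 dpw library stood apart through 66 cells, 0.902% of its total, led by a pair of MFAP4 genes and the connexin gene cx34.5, which clustered together and also held cyp19a1a, the aromatase known from ovarian follicle cells, and gsdf, hsd17b1 and cyp17a1, further genes of gonadal or steroid-forming cells. None of the 8314 cells at 6 dpw was in that cluster, which allows a share of up to 0.0444%. Some of the lowest tissue ratios were those of genes found mostly in these cells, with MFAP4 (ENSDARG00000116066) at 1 UMI at 6 dpw and 32771 UMIs at 4 dpw and cyp19a1a at 1 UMI at 6 dpw and 267 UMIs at 4 dpw, and such genes are not followed further. A cluster led by muscle genes took 2.55% of the cells at 6 dpw and 1.26% at 4 dpw when the libraries were clustered without integration, whereas the muscle-type cells of another clustering took 1.59% at 6 dpw and 2.95% at 4 dpw, so that no order of muscle cells between the times is given. Muscle transcripts were nonetheless higher at 6 dpw in several classes, with pvalb1, a calcium-binding parvalbumin of fast muscle, at 83.1 CPM at 6 dpw and 2.31 CPM at 4 dpw in the tissue. In T or NK cell-like cells, which should hold none, the 17 muscle markers summed to 245 CPM at 6 dpw and 65.0 CPM at 4 dpw. Without both these clusters 1291 genes were called in the tissue, against 1352 with them.

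Keratinocytes had a larger share of the cells at 6 dpw, macrophages and neutrophils a smaller one, and the share of fibroblasts was nearly level. Cells were clustered and each cluster was named by its markers, and the names are used here as class names ending in "-like". Keratinocyte-like cells made up 27.2% at 6 dpw (26.2 to 28.2, 2261 cells) and 15.9% at 4 dpw (15.1 to 16.8, 1166 cells), a ratio of 1.71 (1.59 to 1.83). Macrophage-like cells, the scavenging and signalling cells of the wound, made up 5.59% at 6 dpw (5.11 to 6.11, 465 cells) and 13.8% at 4 dpw (13.1 to 14.7, 1013 cells), a ratio of 0.404 (0.361 to 0.451). For neutrophil-like cells the shares were 0.878% at 6 dpw (0.689 to 1.103, 73 cells) and 2.42% at 4 dpw (2.08 to 2.80, 177 cells), with a ratio of 0.363 (0.272 to 0.479). Fibroblast-like cells, the makers of dermal matrix, held 21.5% at 6 dpw (20.7 to 22.4, 1790 cells) and 20.5% at 4 dpw (19.6 to 21.4, 1499 cells) and a ratio of 1.05 (0.980 to 1.13), a difference whose direction depended on the filters and which is not read as one. Its clusters were less even, with ratios of 0.873 (0.787 to 0.968) for cluster 1, 1.29 (1.14 to 1.46) for cluster 3 and 1.14 (0.981 to 1.32) for cluster 12. Without integration a fibroblast-like cluster with vwde, matn4, thbs4b and kng1 among its leading genes held 7.89% at 6 dpw and 14.03% at 4 dpw, and one led by adh8a held 9.83% at 6 dpw and 3.60% at 4 dpw. A level over all fibroblast-like cells therefore mixes the make-up of the class with the level in each cluster.

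Among the smaller classes, endothelial-like and mural-like cells had lower shares at 6 dpw, and the mucous cell-like value depended on the naming. The ratio of shares was 0.729 (0.632 to 0.840) for endothelial-like cells and 0.697 (0.570 to 0.852) for mural-like cells, the contractile cells around small vessels. Glial-like cells had a ratio of 0.592 (0.460 to 0.759). Mucous cell-like cells, named for the secretory cells of the epidermis, had 3.199% at 6 dpw and 1.83% at 4 dpw and a ratio of 1.75 (1.41 to 2.17). Their cluster had agr2 and muc5.2 but also adgrf3a, avil and pou2f3 among its leading genes. Without integration the class held 71 cells at 6 dpw and 46 at 4 dpw, a ratio of 1.36 (0.924 to 2.01). The order turned when cells were named 1 by 1 from their markers, at 0.587 with wide limits (0.0490 to 5.12). Within the epidermis the ratio was 1.94 (1.65 to 2.28) for the superficial keratinocyte-like cells, 1.297 (1.13 to 1.49) for the basal ones and 1.86 (1.68 to 2.05) for the others. The basal value turned round without integration, as given with the limits. T or NK cell-like cells held 14.6% at 6 dpw and 12.2% at 4 dpw, an order that also turned when cells were named 1 by 1, and pigment-like and red blood cell-like cells had shares whose ratio limits included 1. An unnamed cluster with spink2.5, spink2.4, clca1 and c3a.5 among its leading genes, the last a complement C3 gene, was 25 cells at 6 dpw and 217 cells at 4 dpw, a ratio of 0.101 (0.0642 to 0.154). In the 2 dpw library this cluster had 235 cells, and in the unwounded one 16 cells.

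**Figure D1:**
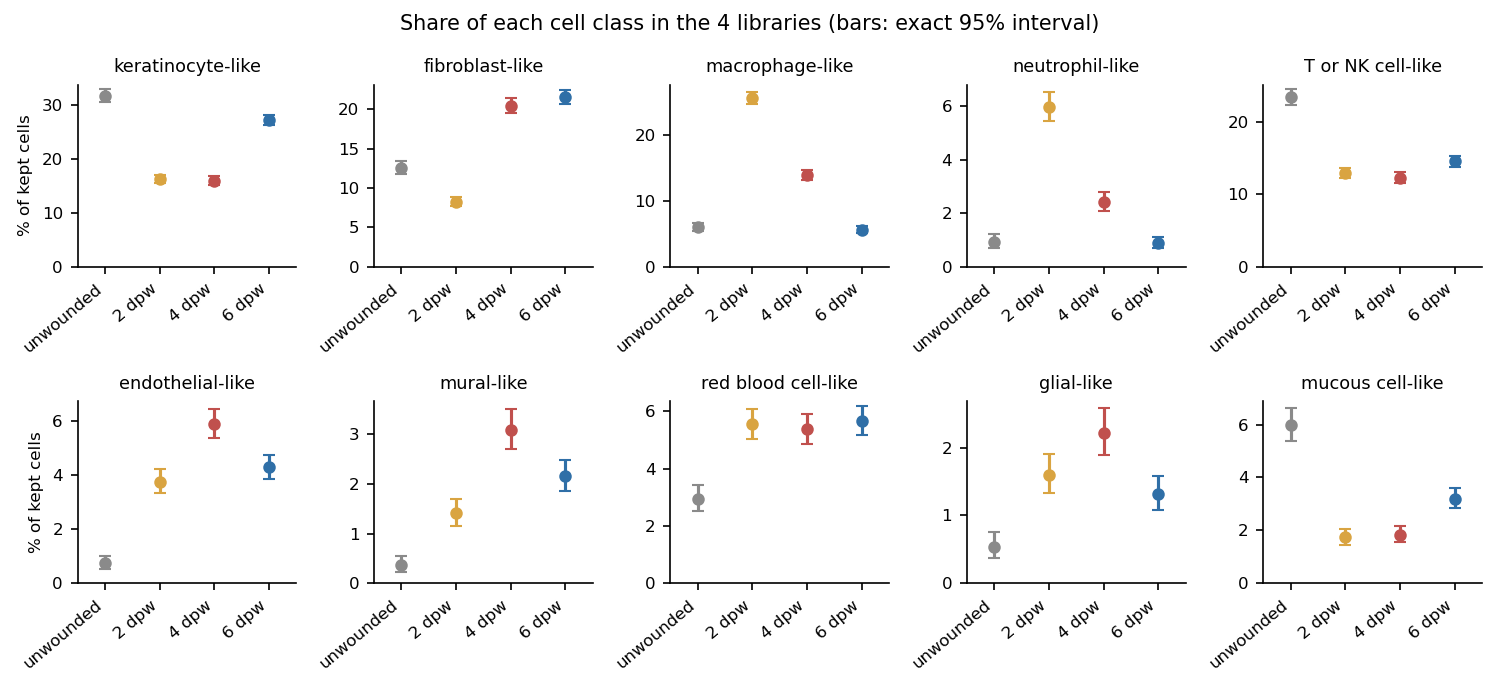
Share of all kept cells in 10 marker-named classes (vertical axis, percent) in unwounded skin and in wounds at 2, 4 and 6 dpw, 1 library each; bars are exact 95% binomial limits and cover counting error only. Keratinocyte-like cells stand at 27.2% at 6 dpw and 15.9% at 4 dpw, and macrophage-like cells at 5.59% at 6 dpw and 13.8% at 4 dpw.

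Since a class can change its share, its RNA per cell or its composition of transcripts, a value over the whole tissue mixes all of them, and fewer cells of a type cannot be told apart there from less of a transcript in each. Shares of UMIs did not run in step with shares of cells in every class. Keratinocyte-like cells held 46.7% of the UMIs at 6 dpw and 26.1% at 4 dpw, macrophage-like cells 4.36% at 6 dpw and 13.3% at 4 dpw. Fibroblast-like cells held 24.4% of the UMIs at 6 dpw and 34.4% at 4 dpw despite their nearly level share of cells, and T or NK cell-like cells 5.82% at 6 dpw and 5.75% at 4 dpw. The median UMI count per cell of fibroblast-like cells was 6616 at 6 dpw and 11214 at 4 dpw, and that of macrophage-like cells 4269 at 6 dpw and 7017 at 4 dpw, whereas keratinocyte-like cells had 11467 at 6 dpw and 10695 at 4 dpw. Within a class the CPM is relative to that class's own UMIs and does not carry these depths.

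Over the whole tissue 506 of the 12488 genes tested were at least 2-fold higher at 6 dpw (4.05%) and 846 at least 2-fold lower (6.77%), with a median log2 ratio of -0.16. With TMM scaling, which sets the bulk of genes level between libraries, the split was 713 higher and 618 lower, and all tissue log2 ratios rise by 0.17. In keratinocyte-like cells the 139 genes higher and 222 lower of 7377 tested became 222 higher and 138 lower with a shift of 0.21. That scaling moves all genes of a context alike and by less than 2-fold, so a called gene could not change direction under it. Genes given below as near level could cross 1, such as col1a1a and postnb in fibroblast-like cells and krt5 and isg15 in keratinocyte-like cells. Genes that did not pass the call could pass 2-fold under it, such as srebf2 and cldne in keratinocyte-like cells. Fibroblast-like cells had 340 genes higher and 243 lower among 7594 tested, and macrophage-like cells 85 higher and 118 lower among 4628. Of the 35 gene lists followed, those with the highest tissue medians were cholesterol synthesis, epidermal differentiation and junctions, and scale and mineralisation. The lowest medians were those of neutrophil granule and migration genes, complement, and contractile genes.

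**Figure D2:**
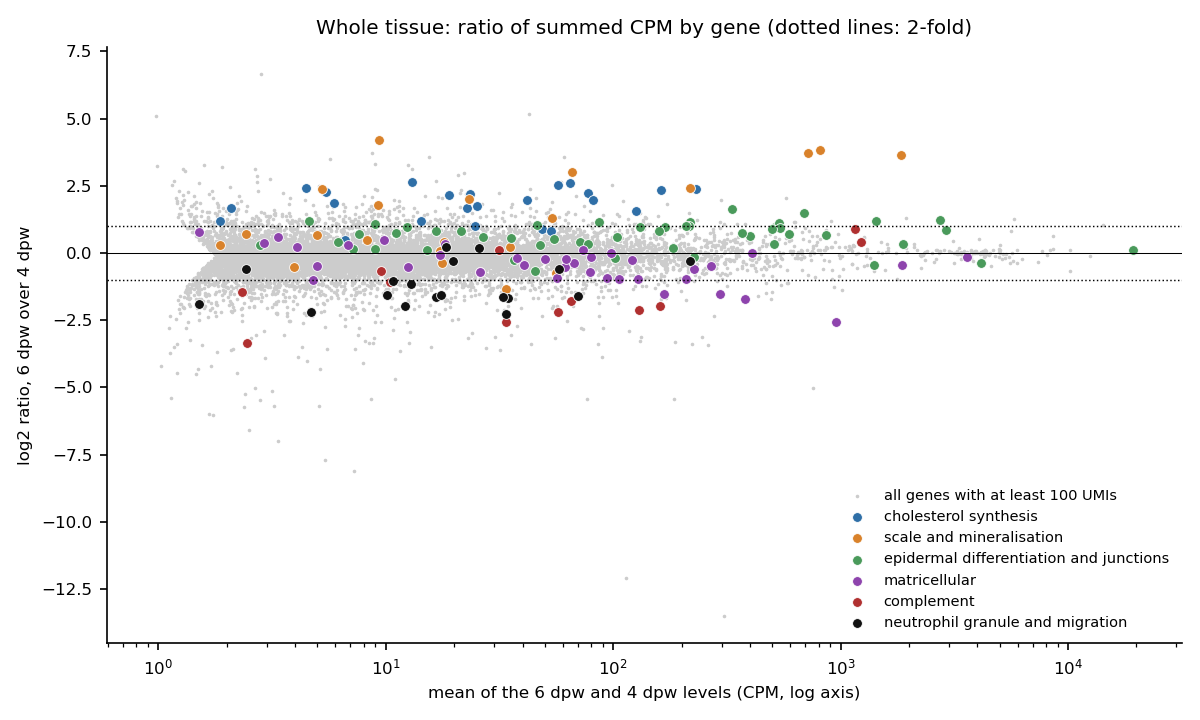
Log2 ratio of tissue CPM at 6 dpw over 4 dpw (vertical axis) against the mean CPM of both libraries (horizontal log axis) for every tested gene in grey, with 6 gene lists in colour and dotted lines at 2-fold. The scale genes scpp7, enam and col10a1a lie near the top at ratios of 12.4, 13.2 and 14.3, and fn1b and tagln lie below the lower line at 0.168 and 0.196.

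**Figure D3:**
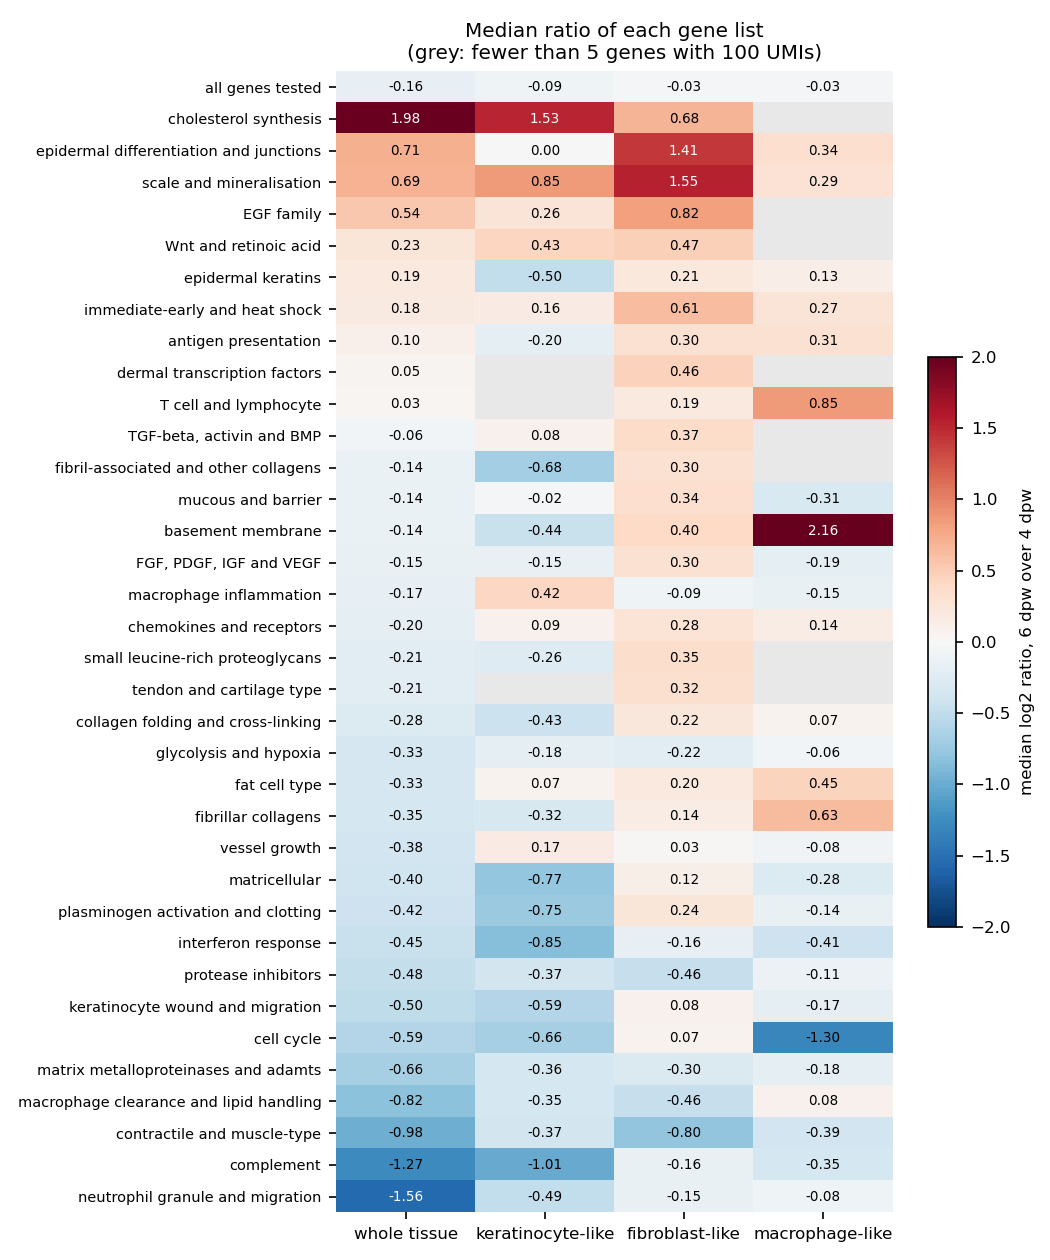
Median log2 ratio of each gene list (rows) in the whole tissue and in keratinocyte-like, fibroblast-like and macrophage-like cells (columns), 6 dpw over 4 dpw, with grey cells where fewer than 5 genes were tested. Cholesterol synthesis has 1.98 in the tissue and 1.53 in keratinocyte-like cells, and scale and mineralisation has 0.69 in the tissue and 1.55 in fibroblast-like cells.

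Genes of scale matrix and mineralisation were among the highest ratios of the comparison. In the tissue 10 of 22 tested members were at least 2-fold higher at 6 dpw, beside 4.05% of all genes, and the median log2 ratio was 0.69. The gene scpp7, a secretory calcium-binding phosphoprotein of mineralised matrix, had 575, 631, 275 and 3403 CPM across unwounded skin, 2, 4 and 6 dpw, a ratio of 12.4 (12.2 to 12.6). For enam, which encodes enamelin, a protein best known from tooth enamel, the levels were 156, 274, 101 and 1336 CPM in the same order and the ratio 13.2 (12.9 to 13.6). The network collagen gene col10a1a, expressed by bone-forming cells in fish, stood at 474, 255, 106 and 1515 CPM and a ratio of 14.3 (13.9 to 14.7). All 3 were thus higher at 6 dpw than in any of the other libraries and lowest at 4 dpw. In the cells left out above the upper limits scpp7 had 13099.5 CPM at 6 dpw and 1000.59 CPM at 4 dpw, so the order was the same there.

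Within fibroblast-like cells 16 of 21 members were called higher and 0 lower, where 4.48% of all genes were higher, and the median log2 ratio was 1.55 beside -0.03 for all genes. The levels of col10a1a in these cells were 4367, 1711, 282 and 6124 CPM across unwounded skin, 2, 4 and 6 dpw, a ratio of 21.8 (21.1 to 22.4). Its duplicate col10a1b had 1494 CPM at 6 dpw and 186 CPM at 4 dpw and a ratio of 8.03 (7.75 to 8.33), and unlike col10a1a it was highest in unwounded skin at 4186 CPM. For ifitm5, a membrane protein of osteoblasts that is needed for bone mineralisation, the levels were 402, 174, 35.9 and 468 CPM and the ratio 13.04 (12.03 to 14.1). The ratios of these 3 genes thus lay between 8.03 and 21.8, those of scpp7 and enam at 21.5 and 17.4. The regulators and enzymes of mineralisation had smaller ratios at lower levels. The gene of the osteoblast transcription factor sp7 stood at 10.4 CPM at 6 dpw and 4.14 CPM at 4 dpw, a ratio of 2.503 (1.88 to 3.35). For entpd5a, an enzyme needed for bone mineralisation in zebrafish, the levels were 55.4 CPM at 6 dpw and 10.7 CPM at 4 dpw and the ratio 5.18 (4.43 to 6.09). The gene phex, a peptidase that guards phosphate balance, had 51.1 CPM at 6 dpw and 16.8 CPM at 4 dpw and a ratio of 3.04 (2.65 to 3.48). In contrast to scpp7 and enam, all 3 of these genes remained below their unwounded levels of 30.6 CPM for sp7, 129.9 CPM for entpd5a and 107 CPM for phex. The homeobox genes msx2b, dlx3b and dlx5a, which mark skeletal and appendage-forming cells, had ratios of 9.40, 2.92 and 2.03.

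Several members did not follow. The gene of the master bone regulator runx2a had 9.07 CPM at 6 dpw and 10.0 CPM at 4 dpw and a ratio of 0.905 (0.715 to 1.14), and mgp, an inhibitor of calcification, had 163 CPM at 6 dpw and 189 CPM at 4 dpw and a ratio of 0.859 (0.814 to 0.906). The osteocalcin gene bglap stood at 26.1 CPM at 6 dpw and 18.5 CPM at 4 dpw, and its ratio of 1.41 (1.22 to 1.65) did not pass the call either. The high value of bglapl rested on 1 cell with 57.6% of its UMIs, and 1 cell held 21.2% of those of spp1, the gene of osteopontin. In the tissue enpp1, which makes the calcification inhibitor pyrophosphate, was the only member called lower, at 19.04 CPM at 6 dpw and 48.7 CPM at 4 dpw, and 81.7% of its UMIs at 4 dpw were in macrophage-like cells. Within fibroblast-like cells enpp1 was instead called higher, with 24.7 CPM at 6 dpw and 12.2 CPM at 4 dpw. Chosen by size alone, sgms2a, an enzyme of sphingomyelin synthesis, and tmem119a, a gene of bone-forming cells in mammals, also had high fibroblast-like ratios of 16.1 (12.7 to 20.7) and 8.39 (5.01 to 14.9).

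Cells rich in these transcripts lay mostly in 1 of the 3 clusters that make up the fibroblast-like class. In cluster 12, with 420 cells at 6 dpw and 325 cells at 4 dpw, 17 of 18 members were called higher, where 7.38% of all genes were, and only mgp was called lower, beside 9.7% of all genes. The median log2 ratio of the list there was 2.79. The level of scpp7 in cluster 12 was 21584 CPM at 6 dpw and 1077 CPM at 4 dpw, that of enam 14729.9 CPM at 6 dpw and 979 CPM at 4 dpw and that of col10a1a 28207 CPM at 6 dpw and 1178 CPM at 4 dpw. Single cells with at least 10 UMIs of col10a1a numbered 101 at 6 dpw and 25 at 4 dpw among fibroblast-like cells, of which 92 at 6 dpw and 17 at 4 dpw were in cluster 12. For ifitm5 such cells numbered 77 at 6 dpw and 8 at 4 dpw. Cluster 12 was mixed. Its leading genes were col10a1a and ifitm5, but adamtsl7 and ppdpfa were among them as well. When all variable genes were clustered, col10a1a and ifitm5 were leading genes of a cluster of 107 cells at 6 dpw and 43 at 4 dpw, and adamtsl7 and ppdpfa of another, named for muscle, of 132 cells at 6 dpw and 216 at 4 dpw. The 17 muscle markers summed to 638 CPM at 6 dpw and 1493 CPM at 4 dpw in cluster 12, and the part of this mixture in its values was not tested. As the cells of this cluster were shallower at 6 dpw, with median UMI counts of 3824 at 6 dpw and 11108 at 4 dpw, each cell was thinned to 500 UMIs before cells with a transcript were counted. After thinning scpp7 was found in 30.2% at 6 dpw (127 of 420) and 2.77% at 4 dpw (9 of 325), and ifitm5 in 17.6% at 6 dpw (74 of 420) and 2.15% at 4 dpw (7 of 325). The share of cells with scpp7 before thinning was 50.7% at 6 dpw and 4.92% at 4 dpw. T or NK cell-like cells, which should lack these genes, had scpp7 in 6.20% at 6 dpw (75 of 1210) and 0.335% at 4 dpw (3 of 896) and ifitm5 in 0.0826% at 6 dpw (1 of 1210) and 0% at 4 dpw (0 of 896), where 0 of 896 allows a share of up to 0.411%. Their median UMI counts were 2014 at 6 dpw and 2394 at 4 dpw. The share of cells with scpp7 in this class, read as background, was thus itself higher at 6 dpw, and below that of cluster 12. Without cluster 12 the calls in fibroblast-like cells were 432, against 583 with it. In cluster 1, 6 of 10 members were called higher (4.1% of all genes) and in cluster 3, 6 of 16 (2.46% of all genes).

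Basal keratinocyte-like cells, the epidermal layer that faces the dermis, carried scpp7 as well. Its levels there were 7413, 1842, 2065 and 29494 CPM across unwounded skin, 2, 4 and 6 dpw, a ratio of 14.3 (13.9 to 14.7). Those of enam were 775, 333, 364 and 4285 CPM, with a ratio of 11.8 (10.98 to 12.6). The homeobox gene msx2b stood at 58.1 CPM at 6 dpw and 8.83 CPM at 4 dpw in the same cells, a ratio of 6.58 (4.18 to 10.9). Of the basal cells thinned to 500 UMIs, scpp7 was found in 34.9% at 6 dpw (180 of 516) and 15.1% at 4 dpw (53 of 350) and enam in 12.4% at 6 dpw (64 of 516) and 2.57% at 4 dpw (9 of 350). The scpp7 level of the basal cells at 6 dpw thus lay above that of cluster 12, and their enam level below it. Among all keratinocyte-like cells ambn, which encodes ameloblastin, a further protein of enamel matrix, was called higher at 4.07 CPM at 6 dpw and 0.935 CPM at 4 dpw. The values of col10a1a and col10a1b below 1 in keratinocyte-like cells rested on single cells with 84.2% and 89.4% of the UMIs and were turned round without them.

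**Figure D4:**
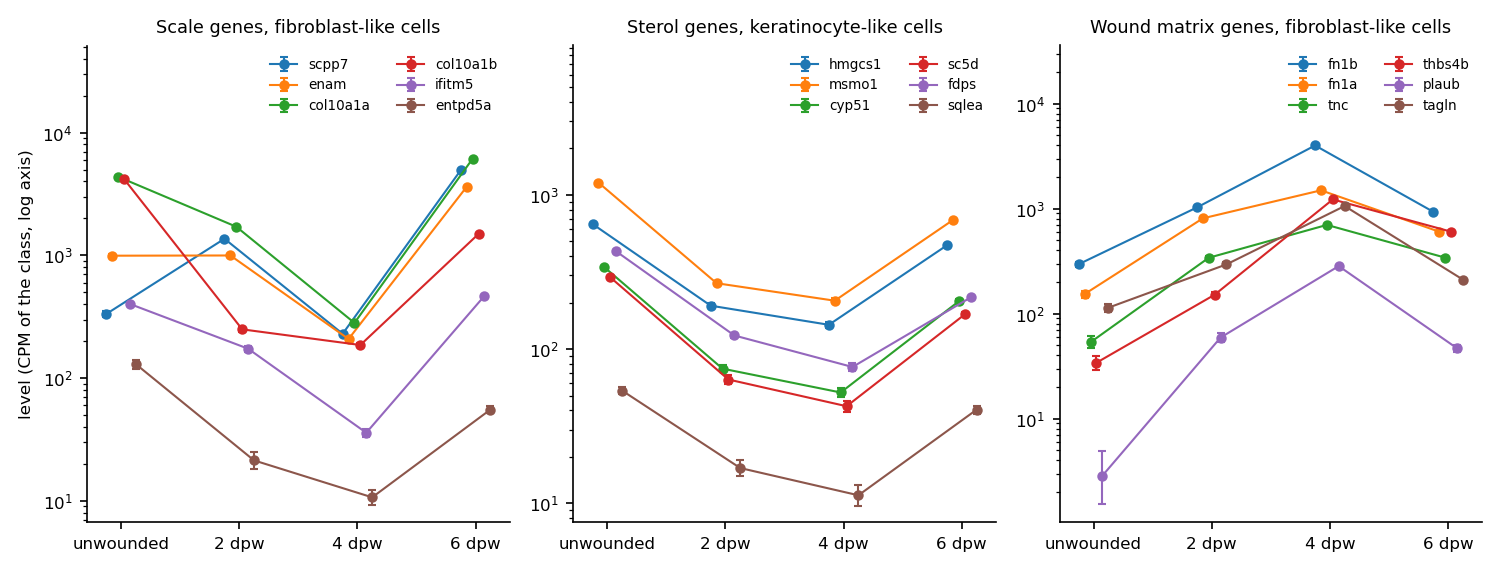
CPM (vertical log axes) across unwounded skin, 2, 4 and 6 dpw, 1 library each, for scale genes in fibroblast-like cells, sterol genes in keratinocyte-like cells and wound matrix genes in fibroblast-like cells. Scale genes and sterol genes are lowest at 4 dpw and higher at 6 dpw, such as scpp7 with 4947 CPM at 6 dpw and 229.6 CPM at 4 dpw, while wound matrix genes peak at 4 dpw, such as fn1b with 934 CPM at 6 dpw and 3999 CPM at 4 dpw.

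Several genes of the provisional wound matrix were lower at 6 dpw. Among matricellular genes, whose proteins tune the contact of cells with the matrix, 4 of 38 tested were at least 2-fold lower in the tissue, beside 6.77% of all genes, and none higher. They were fn1b and fn1a, the fibronectin genes, tnc, which encodes tenascin C, and thbs4b, a thrombospondin of tendon and wound matrix. The same 4 genes were the ones called lower in fibroblast-like cells, where 3.2% of all genes were lower, while 2 of 36 were called higher, beside 4.48% of all genes. These were vcana, a versican gene, at 2.13 (1.87 to 2.43) and spp1 at 2.28 (2.02 to 2.58). The levels of fn1b in fibroblast-like cells were 296, 1027, 3999 and 934 CPM across unwounded skin, 2, 4 and 6 dpw, a ratio of 0.234 (0.229 to 0.238). For tnc they were 53.4, 341, 700.4 and 342 CPM, with a ratio of 0.488 (0.472 to 0.504), and for thbs4b 34.1, 151, 1225 and 604 CPM, with a ratio of 0.493 (0.481 to 0.506). All of them peaked at 4 dpw and were still above unwounded skin at 6 dpw. After thinning, fn1b was found in 22.4% at 6 dpw (401 of 1790) and 48.8% at 4 dpw (732 of 1499) of the fibroblast-like cells, and in T or NK cell-like cells in 0.826% at 6 dpw (10 of 1210) and 3.01% at 4 dpw (27 of 896). The clusters did not share all of this. In cluster 1 fn1b had a ratio of 0.310 and fn1a one of 0.423, tnc and thbs4b did not pass the call, and hapln1a, a link protein of hyaluronan matrix, tgfbi and fbln2 were called higher at 2.43, 2.41 and 2.32. In cluster 3, where 9 of 32 list members and 2.94% of all genes were lower, the ratios were 0.195 for fn1b, 0.176 for tnc and 0.303 for thbs4b, and only ccn2b was called higher, at 2.04. The direction of hapln1a thus differed between both clusters, with 0.430 in cluster 3. The class calls of vcana and spp1 were not found in cluster 3. There vcana, with 575 of its 596 fibroblast-like UMIs at 6 dpw, had 1.58 (1.37 to 1.82), short of the call, and spp1 was called lower at 0.441 (0.360 to 0.538). Over all fibroblast-like cells postnb, the gene of the wound protein periostin, was near level with 5912 CPM at 6 dpw and 5873 CPM at 4 dpw. Its ratio was 1.23 (1.22 to 1.24) in cluster 1 and 1.36 (1.31 to 1.41) in cluster 3, neither past the call.

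By size plaub, kng1, adamtsl7 and cxcl8b.3 were among the lowest ratios in fibroblast-like cells. The urokinase gene plaub, whose product activates plasminogen, had 2.86, 59.2, 284 and 46.9 CPM over the 4 libraries in time order, a ratio of 0.165 (0.152 to 0.179). The kininogen gene kng1 stood at 24.1 CPM at 6 dpw and 148 CPM at 4 dpw, a ratio of 0.163 (0.145 to 0.182), and adamtsl7, which encodes a secreted ADAMTS-like matrix protein, at 34.3 CPM at 6 dpw and 177 CPM at 4 dpw. Within cluster 1 the ratios were 0.195 for plaub, 0.242 for kng1 and 0.188 for adamtsl7, and within cluster 12 0.175, 0.0908 and 0.211 in the same order. When all variable genes were clustered, plaub and adamtsl7 were leading genes of the cluster named for muscle, of 132 cells at 6 dpw and 216 at 4 dpw. As cluster 12 was mixed, its ratios do not hold the make-up of cells fixed. The chemokine gene cxcl8b.3, which attracts neutrophils, had a ratio of 0.265 (0.195 to 0.355). Of the list of plasminogen activation and clotting 1 of 9 genes was called higher and 1, plaub, lower in fibroblast-like cells, beside 4.48% and 3.2% of all genes. In the tissue 4 of 12 were called lower, beside 6.77% of all genes, 2 of them the coagulation factor XIII genes f13a1a.1 and f13a1b, and 6 of 24 metalloproteinase genes.

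The fibrillar collagens, the main fibres of the dermis, had no gene called lower within fibroblast-like cells. The gene col1a1a, a chain of collagen I and also a marker that names the fibroblast-like class, had 3841 CPM at 6 dpw and 5305.0 CPM at 4 dpw in the tissue, a ratio of 0.724 (0.720 to 0.728), but 15069 CPM at 6 dpw and 14823 CPM at 4 dpw within fibroblast-like cells, a ratio of 1.02 (1.01 to 1.02). When the tissue ratio was split, the class shares of UMIs alone gave 0.719 and the levels within classes alone 1.02. This tissue difference thus lay in the shares of UMIs. The fibroblast-like share of cells was nearly level, while the median UMI count per cell of that class was lower at 6 dpw, as given above. For fn1b the same split gave 0.841 from shares and 0.220 from levels, and for scpp7 1.41 from shares and 11.09 from levels. Of 13 fibrillar collagen genes tested in fibroblast-like cells 3 were called higher, beside 4.48% of all genes, and none lower. They were col11a2, with 109.7, 20.97, 5.78 and 90.3 CPM in time order and a ratio of 15.6 (12.8 to 19.2), col5a2b, with 73.2, 22.04, 7.03 and 93.8 CPM and 13.3 (11.13 to 16.1), and col5a3b with a ratio of 5.33 (3.47 to 8.46), all chains of the minor collagens that sit inside thicker fibrils. When all variable genes were clustered, col11a2 and col5a2b led the same cluster as col10a1a and ifitm5, of 107 cells at 6 dpw and 43 at 4 dpw. Their class levels therefore also mix make-up with the level in each cluster. Of other collagens, col22a1, a collagen of tissue junctions, had a ratio of 3.54 (3.26 to 3.86), and col8a1b one of 0.451 (0.422 to 0.482). The gene col12a1a, a fibril-associated collagen, was called lower in the tissue, at 561 CPM at 6 dpw and 1467 CPM at 4 dpw, and missed the call within fibroblast-like cells at 0.532 (0.525 to 0.540).

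**Figure D5:**
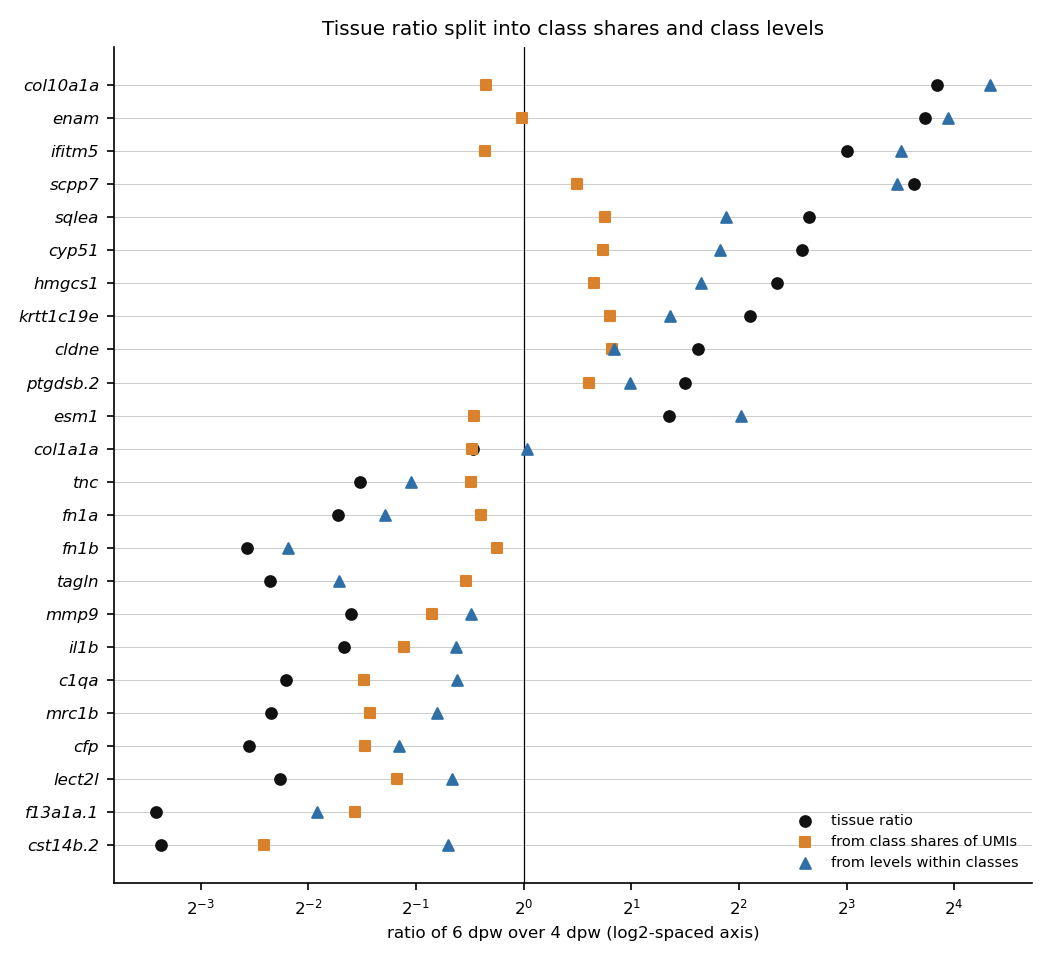
Ratio of tissue CPM at 6 dpw over 4 dpw for 24 genes (log2-spaced horizontal axis), beside the ratio that the class shares of UMIs alone give and the ratio that the levels within classes alone give. For scpp7 levels give 11.09 and shares 1.41, and for col1a1a levels give 1.02 and shares 0.719.

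Small leucine-rich proteoglycans, which coat and space collagen fibrils, and enzymes that fold and cross-link collagen differed by member. In fibroblast-like cells 5 of 13 proteoglycan genes were called higher, beside 4.48% of all genes, and none lower, beside 3.2%. Among them the biglycan gene bgna had 445, 61.0, 27.0 and 205 CPM in time order, a ratio of 7.59 (6.90 to 8.36), and omd, which encodes osteomodulin of bone, had a ratio of 4.29 (3.95 to 4.66). Without integration bgna was a leading gene of the same cluster as col10a1a and ifitm5, of 309 cells at 6 dpw and 196 at 4 dpw. Its class level therefore also mixes make-up with the level in each cluster. The decorin gene dcn had 1357 CPM at 6 dpw and 1939 CPM at 4 dpw and lum, the lumican gene, 1624 CPM at 6 dpw and 1442 CPM at 4 dpw, neither past the call. Both dcn and lum are also markers that name the fibroblast-like class. Of the folding and cross-linking genes loxl4, a lysyl oxidase that starts collagen cross-links, was higher at 58.0 CPM at 6 dpw and 4.96 CPM at 4 dpw, a ratio of 11.7 (9.41 to 14.7), and pcolceb, an enhancer of procollagen processing, at 31.8 CPM at 6 dpw and 8.67 CPM at 4 dpw. The gene plod2, whose lysyl hydroxylase sets the type of cross-link, was the only one of 27 called lower, with 7.69, 24.6, 38.4 and 12.3 CPM in time order and a ratio of 0.321 (0.270 to 0.380).

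Several contractile genes were lower in fibroblast-like cells at 6 dpw and near level in mural-like cells. Of 17 contractile genes tested in fibroblast-like cells 5 were called lower, beside 3.2% of all genes, and 1 higher, beside 4.48%. The higher gene was the muscle actin gene acta1b. In the tissue 8 of 17 were lower, beside 6.77% of all genes. The 17 muscle markers summed to 256 CPM at 6 dpw and 369 CPM at 4 dpw in fibroblast-like cells, and the part of muscle RNA in these values was not tested. The actin-binding protein gene tagln, a marker of contractile fibroblasts and smooth muscle, had 114, 295, 1059.5 and 211 CPM in fibroblast-like cells in time order, a ratio of 0.199 (0.192 to 0.207). The smooth muscle actin gene acta2 stood at 3.39 CPM at 6 dpw and 12.9 CPM at 4 dpw there, a ratio of 0.262 (0.187 to 0.360). In mural-like cells, where both genes stood at far higher levels, acta2 was 965 CPM at 6 dpw and 971 CPM at 4 dpw and tagln 2009 CPM at 6 dpw and 2207 CPM at 4 dpw, and none of 11 contractile genes passed the call, beside 2.39% of all genes of the class higher and 3.55% lower. Both acta2 and tagln are also markers that name the mural-like class, so their levels there are partly set by the naming. At 6 dpw 87.5% of the acta2 UMIs of the tissue were in mural-like cells, and 68.7% at 4 dpw.

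Some signalling genes of fibroblast-like cells were called in either direction, with 5 of 24 genes of the TGF-beta, activin and BMP list higher and 2 lower, beside 4.48% and 3.2% of all genes. The bone morphogenetic protein gene bmp2a had 42.9, 7.08, 1.69 and 11.9 CPM in time order, a ratio of 7.03 (4.77 to 10.7). The decoy receptor gene bambib, which dampens such signals, had a ratio of 4.21 (3.13 to 5.74), the antagonist gene nog2, a noggin, 3.40 (2.52 to 4.62), and inhbab, an activin subunit, 3.10 (2.67 to 3.60). The BMP antagonist gene chrd, which encodes chordin, was instead lower, with 0.482 (0.358 to 0.642). From the growth factor list igf1, igf2a and igfbp1a were called higher, where 4.48% of all genes were. They are given as single genes and not as a result of the list. The last of them, a secreted binding protein for insulin-like growth factors, stood at 250.0 CPM at 6 dpw and 60.7 CPM at 4 dpw. In the Wnt and retinoic acid list 5 of 27 were higher and 3 lower. The gene cyp26a1, whose enzyme breaks down retinoic acid, had 37.4 CPM at 6 dpw and 7.36 CPM at 4 dpw, a ratio of 5.08 (4.195 to 6.18), while crabp1b and crabp2a, which bind retinoic acid in the cell, had ratios of 0.451 (0.404 to 0.502) and 0.406 (0.368 to 0.449). The hedgehog ligand gene ihha stood at 56.5, 6.94, 2.40 and 8.64 CPM in time order, a ratio of 3.60 (2.53 to 5.21) and still below unwounded skin. In cluster 12 bmp2a, bambib, inhbab and bmp2b were called higher, where 7.38% of all genes were.

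These fibroblast-like values move with transcripts of the epidermis. The 14 keratinocyte markers summed to 5019 CPM at 6 dpw and 1843 CPM at 4 dpw in fibroblast-like cells, with 12 of 14 higher at 6 dpw. Of epidermal differentiation and junction genes 18 of 32 were called higher there, beside 4.48% of all genes. In macrophage-like cells the keratinocyte markers summed to 2472 CPM at 6 dpw and 864 CPM at 4 dpw and in T or NK cell-like cells to 2016 CPM at 6 dpw and 1328 CPM at 4 dpw. In the tissue the same markers summed to 35643 CPM at 6 dpw and 19754 CPM at 4 dpw. Genes that epidermis and fibroblast-like cells both gave higher, such as scpp7, are therefore read with these sums, whose part in the results was not tested. The bone gene ifitm5 was found after thinning in 0.133% at 6 dpw (3 of 2261) and 0.0858% at 4 dpw (1 of 1166) of keratinocyte-like cells, far below its share in cluster 12.

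Genes of cholesterol synthesis were higher at 6 dpw, in the tissue and within keratinocyte-like cells. In the tissue 19 of 23 members were at least 2-fold higher at 6 dpw, beside 4.05% of all genes, and none lower, with a median log2 ratio of 1.98. In keratinocyte-like cells 17 of 22 were higher, beside 1.88% of all genes there, with a median of 1.53. The synthase gene hmgcs1, at the entry of the pathway, had 647, 191, 144 and 471 CPM in keratinocyte-like cells in time order, a ratio of 3.28 (3.13 to 3.44). The rate-limiting reductase gene hmgcra had 255, 57.3, 45.1 and 117 CPM, a ratio of 2.58 (2.37 to 2.82). Further along, sqlea, the squalene epoxidase gene, had 53.8, 16.9, 11.3 and 40.5 CPM, a ratio of 3.59 (3.03 to 4.27). In the late steps that turn lanosterol into cholesterol, cyp51 stood at 339, 74.7, 52.3 and 204 CPM, a ratio of 3.90 (3.61 to 4.22), msmo1 at 686 CPM at 6 dpw and 206 CPM at 4 dpw, sc5d at 168 CPM at 6 dpw and 42.6 CPM at 4 dpw and dhcr7 at 226 CPM at 6 dpw and 68.9 CPM at 4 dpw. Levels were thus lowest at 4 dpw for hmgcs1, hmgcra, sqlea and cyp51, and at 6 dpw they still stood below unwounded skin. After thinning, cyp51 was found in 7.65% at 6 dpw (173 of 2261) and 1.89% at 4 dpw (22 of 1166) of keratinocyte-like cells. In T or NK cell-like cells it was found in 0.248% at 6 dpw (3 of 1210) and 0% at 4 dpw (0 of 896), where 0 of 896 allows up to 0.411%. The tissue ratio of hmgcs1 of 5.12 (4.92 to 5.33) split into 1.57 from shares and 3.14 from levels.

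The difference was found in all 3 groups of keratinocyte-like cells. Called higher were 8 of 9 genes in basal (3.37% of all genes), 12 of 17 in superficial (2.12%) and 17 of 22 in other keratinocyte-like cells (2.07%). In basal cells hmgcs1 had 110.1 CPM at 6 dpw and 19.8 CPM at 4 dpw, a ratio of 5.57 (4.101 to 7.72), in superficial cells one of 3.88 (3.43 to 4.41) and in the others one of 2.90 (2.76 to 3.06). The others include cluster 19, with sqlea, msmo1 and sc5d among its leading genes. It had 230 cells at 6 dpw and 53 at 4 dpw, a ratio of shares of 3.82 (2.82 to 5.25). Its part of the UMIs was 5.48% at 6 dpw and 1.46% at 4 dpw. Sterol levels over the class, and the levels part of the hmgcs1 split, therefore also mix make-up with the level in each cluster. The isomerase gene ebp of the same pathway, found by size, had a ratio of 9.54 (5.65 to 17.4) in basal cells. The regulators were more even, with srebf2, the transcription factor that switches the pathway on, at 96.0 CPM at 6 dpw and 55.4 CPM at 4 dpw and ldlra, the receptor for lipoprotein uptake, at 34.3 CPM at 6 dpw and 20.8 CPM at 4 dpw, both short of the call, while insig1, which holds the pathway back, was called higher at 2.79 (2.42 to 3.23). By size the citrate carrier gene SLC25A1, which feeds lipid synthesis in the cytosol, was also among the top of keratinocyte-like cells at 4.32 (3.43 to 5.51), as was the retinol dehydrogenase gene rdh12 at 3.90 (3.37 to 4.53). Outside the epidermis 4 of 10 genes were called higher in fibroblast-like (4.48% of all genes) and 3 of 6 in mucous cell-like cells (3.48% of all genes).

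Epidermal differentiation genes were higher in the tissue at 6 dpw but mostly near level within keratinocyte-like cells. Of 50 tested 12 were called higher in the tissue, beside 4.05% of all genes. Within keratinocyte-like cells 3 of 49 were called higher, beside 1.88% of all genes, and the list's median log2 ratio there was 0.00. The claudin gene cldne, a tight junction component, had 501 CPM at 6 dpw and 163 CPM at 4 dpw in the tissue, a ratio of 3.08 (3.003 to 3.15), and 935 CPM at 6 dpw and 522 CPM at 4 dpw in keratinocyte-like cells. The split of its tissue ratio gave 1.76 from class shares and 1.79 from levels. The 3 genes called within the class were ptgdsb.1 and ptgdsb.2, lipocalins of the prostaglandin D synthase kind, and the claudin gene cldnh. For ptgdsb.2 the levels were 445, 266, 162 and 602 CPM in time order, a ratio of 3.72 (3.56 to 3.89). These values leave out unnamed cluster 18, of 191 cells at 6 dpw and 104 at 4 dpw. Both ptgdsb.2 and ptgdsb.1 were among its leading genes.

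Keratins split by type. Of 19 keratin genes tested in keratinocyte-like cells 6 were called lower, beside 3.01% of all genes, and 2 higher. The gene krt93 had 7.40, 58.4, 75.1 and 1.39 CPM in time order, a ratio of 0.0186 (0.0130 to 0.0258). It was also 1 of the lowest ratios in the keratinocyte-like cells outside the basal and superficial layers, at 0.0143 (0.00888 to 0.0218), where 2.97% of all genes were lower. For krt94 the levels were 88.7, 3202, 1297 and 118 CPM, with a ratio of 0.0911 (0.0877 to 0.0947), and for krt17, whose mammalian counterpart is induced in wounded epidermis, 819, 1603, 2909.7 and 1011 CPM, with a ratio of 0.348 (0.342 to 0.353). All 3 were higher in the 2 dpw and 4 dpw wounds than in unwounded skin. Without integration, the jac4 cluster described below held 3.01% of the krt17 UMIs of the tissue at 6 dpw and 56.0% at 4 dpw. Its part of the krt93 UMIs was 4.26% at 6 dpw and 60.3% at 4 dpw. Keratin levels over the class therefore also mix make-up with the level in each cluster. The simple epithelial keratin gene krt18a.1 was lower as well, with 498 CPM at 6 dpw and 1382 CPM at 4 dpw. On the other side krtt1c19e, a keratin of basal keratinocytes in zebrafish, stood at 225 CPM at 6 dpw and 92.7 CPM at 4 dpw, a ratio of 2.42 (2.28 to 2.58), and krt99 at 5.80 CPM at 6 dpw and 0.791 CPM at 4 dpw. Here krtt1c19e was a leading gene of cluster 8, beside jac4 and krt17. That cluster is keratinocyte-like but was named neither basal nor superficial. The abundant krt5 and krt91 were near level in the class, at ratios of 0.878 and 1.17. Both, like krt93, krt94 and krtt1c19e, are also markers that name the class, so their levels there are partly set by the naming.

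Some genes of wounded and moving keratinocytes were lower, with 6 of 25 called lower and 1 higher, beside 3.01% and 1.88% of all genes. The lectin gene jac4, of the jacalin family, had 42.5, 1202, 1868 and 701 CPM in time order, a ratio of 0.375 (0.368 to 0.383). In basal cells, where 3.91% of all genes were lower, jac4 was 73.0 CPM at 6 dpw and 569 CPM at 4 dpw, a ratio of 0.128 (0.111 to 0.147). The gelatinase gene mmp9 had 3.11, 101, 28.8 and 7.95 CPM over the class, a ratio of 0.277 (0.233 to 0.328), and col7a1, the collagen that anchors epidermis to dermis, 13.6, 96.0, 46.4 and 15.8 CPM, a ratio of 0.340 (0.300 to 0.385). The fibronectin gene fn1a was also lower in these cells, at 0.293 (0.270 to 0.317). When the libraries were clustered without integration, 1 cluster with jac4 and krt17 among its leading genes had 25, 621, 489 and 40 cells in time order and held 3.46% of the jac4 UMIs of the tissue at 6 dpw and 56.7% at 4 dpw. As its leading genes differ between the libraries, these cell numbers are a description and no share is compared.

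Some interferon and cell cycle genes were lower in keratinocyte-like cells too, where 3.01% of all genes were lower. Of 19 interferon response genes 5 were called lower and none higher. Among them ifi45 had 234, 440.1, 367 and 109 CPM in time order, a ratio of 0.298 (0.285 to 0.312), and gbp1, a guanylate-binding defence protein, a ratio of 0.383 (0.336 to 0.436), whereas isg15, a ubiquitin-like modifier, was level at 0.977 (0.936 to 1.02). Of 19 cell cycle genes 7 were called lower and none higher, as mki67, a marker of dividing cells, at 6.67 CPM at 6 dpw and 19.3 CPM at 4 dpw and a ratio of 0.346 (0.285 to 0.420), or top2a, the topoisomerase of mitotic chromosomes, at 0.262 (0.187 to 0.363). The replication clamp gene pcna did not pass the call at 0.834 (0.754 to 0.923). The class leaves out unnamed cluster 31, of 35 cells at 6 dpw and 28 at 4 dpw, with rtkn2a and numa1 among its leading genes. In the clustering of all variable genes hmmr, cenpe and kif23 were leading genes of an unnamed cluster of 61 cells at 6 dpw and 49 at 4 dpw. The class of such cells is not known, and their part in the cell cycle values was not tested. The values are therefore no measure of division in the whole epidermis.

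Clearance genes of macrophages were lower in the tissue but near level within macrophage-like cells. Over the tissue 14 of 33 clearance and lipid handling genes were at least 2-fold lower, beside 6.77% of all genes, and none higher, with a median log2 ratio of -0.82. Within macrophage-like cells 1 of 29 was lower and 1 higher, beside 2.55% and 1.84% of all genes, and the median was 0.08. The lysosomal protease gene ctsd had 5534 CPM at 6 dpw and 4527 CPM at 4 dpw, mertka, a receptor for dying cells, 115 CPM at 6 dpw and 119 CPM at 4 dpw, and the scavenger receptor gene marco 1003 CPM at 6 dpw and 1188 CPM at 4 dpw, none past the call. Of these, marco is also a marker that names the class. The lower one was f13a1a.1, which encodes the cross-linking chain of clotting factor XIII, with 0, 1259, 3542 and 905 CPM in time order and a ratio of 0.255 (0.245 to 0.267). Few cells carried it, since 9 at 6 dpw and 31 at 4 dpw had at least 10 UMIs, and after thinning it was found in 2.58% at 6 dpw (12 of 465) and 3.85% at 4 dpw (39 of 1013). The mannose receptor gene mrc1b had 338 CPM at 6 dpw and 553 CPM at 4 dpw and did not pass the call. The higher one was acp5b, an acid phosphatase of osteoclasts and macrophages, at 39.5 CPM at 6 dpw and 17.5 CPM at 4 dpw.

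A few inflammatory genes of macrophage-like cells were called, with 4 of 21 lower and 1 higher, beside 2.55% and 1.84% of all genes. The cytokine gene il1b had 252, 417, 201 and 76.6 CPM in time order, a ratio of 0.380 (0.325 to 0.443). The growth factor gene csf3b, which drives neutrophil production, stood at 157, 179, 84.7 and 20.6 CPM, a ratio of 0.243 (0.179 to 0.323), and the acute-phase gene saa at 40.1, 632, 141 and 48.0 CPM, a ratio of 0.340 (0.279 to 0.412). At 6 dpw il1b and csf3b were thus the lowest of the 4 libraries, and saa lay close to unwounded skin. The chemokine gene cxcl19 was instead higher, with 5521, 3222, 3877 and 9236 CPM and a ratio of 2.38 (2.34 to 2.42). Without integration a macrophage-like cluster with cxcl19 among its leading genes had a ratio of shares of 0.507 (0.391 to 0.654). Another with mrc1b among them had 0.316 (0.261 to 0.382). A level over all macrophage-like cells therefore mixes the make-up of the class with the level in each cluster. The cytokine gene tnfa had 22.6 CPM at 6 dpw and 21.7 CPM at 4 dpw, a ratio of 1.04 (0.753 to 1.42), and did not pass the call.

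Some cell cycle genes were lower in macrophage-like cells, where 2.55% of all genes were lower and 1.84% higher. Of 8 cell cycle genes tested 5 were called lower, top2a at 0.159 (0.0627 to 0.338), mki67 at 0.229 (0.107 to 0.436), dut, pcna and stmn1a. The class includes cluster 35, with top2a, kif11 and ect2 among its leading genes, of 1 cell at 6 dpw and 14 cells at 4 dpw. The part of these few cells in the values was not tested. Interferon genes were lower in 3 of 16, with stat1b, a transcription factor of the response, at 0.247 (0.115 to 0.471). The vessel growth factor gene vegfaa had 5.24 CPM at 6 dpw and 17.3 CPM at 4 dpw, a ratio of 0.303 (0.157 to 0.537). On the higher side stood heat shock genes, 5 of 38 of that list, as hsp70.2 at 875 CPM at 6 dpw and 302 CPM at 4 dpw, and 9 of 22 epidermal differentiation genes, with the keratinocyte marker sums given above. By size the metallothionein gene mt2, which binds metal ions, had 3481, 1341, 1301 and 6952 CPM, a ratio of 5.34 (5.21 to 5.48), gdpd3b, a lipid phosphodiesterase, 261 CPM at 6 dpw and 33.1 CPM at 4 dpw, and the ferritin gene fthl28 a ratio of 3.07 (2.88 to 3.27). The class II antigen gene mhc2b stood at 927, 87.8, 145 and 400.2 CPM, a ratio of 2.75 (2.52 to 3.01), and the invariant chain gene cd74a at 10464 CPM at 6 dpw and 6204 CPM at 4 dpw, short of the call.

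Neutrophil genes were lower in the tissue, as was the share of neutrophil-like cells. Of 20 genes of neutrophil granules and migration 13 were at least 2-fold lower, beside 6.77% of all genes, at a median log2 ratio of -1.56. Myeloperoxidase, encoded by mpx, had 8.21 CPM at 6 dpw and 28.1 CPM at 4 dpw in the tissue and 2279 CPM at 6 dpw and 2255 CPM at 4 dpw within neutrophil-like cells, a ratio of 1.01 (0.905 to 1.13). The gene mpx is also a marker that names this class. With 73 cells at 6 dpw and 177 at 4 dpw, 766 genes could be tested in this class, 57 of them lower (7.44%) and 17 higher (2.22%). The flagellin receptor gene tlr5b had 83.8 CPM at 6 dpw and 259 CPM at 4 dpw, a ratio of 0.324 (0.181 to 0.543), and lta4h, an enzyme of leukotriene B4 synthesis, 272 CPM at 6 dpw and 577 CPM at 4 dpw. The type 2 cytokine gene il4 stood at 1218, 102, 177 and 901 CPM in time order, a ratio of 5.09 (3.97 to 6.56), and cpa5, a carboxypeptidase known from zebrafish mast cells, at 875 CPM at 6 dpw and 410.1 CPM at 4 dpw. A single cell held 16.3% of the il4 UMIs. Without integration il4 was a leading gene of a separate unnamed cluster, of 75 cells at 6 dpw and 104 at 4 dpw. The part of such cells in the il4 value was not tested. Fibroblast markers in neutrophil-like cells summed to 283 CPM at 6 dpw and 2532 CPM at 4 dpw, and their part in the values of the class was not tested. Complement genes were lower in the tissue in 8 of 14, beside 6.77% of all genes. Among them were the C1q chain gene c1qa at 0.216 (0.203 to 0.231) and cfp, which encodes properdin, at 0.171 (0.156 to 0.187).

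Endothelial-like cells had a lower share at 6 dpw, and some of their growth genes stood higher within the class. Of 25 vessel growth genes tested in endothelial-like cells 4 were called higher and 2 lower, beside 2.21% and 1.77% of all genes. The genes esm1 and apln, which mark the tips of growing vessels, had 347 CPM at 6 dpw and 119.6 CPM at 4 dpw for esm1, a ratio of 2.90 (2.45 to 3.44), and 321 CPM at 6 dpw and 116 CPM at 4 dpw for apln, a ratio of 2.77 (2.33 to 3.298). The receptor gene flt1, which binds VEGF, and plvapa, a protein of endothelial pores, had ratios of 2.13 (1.84 to 2.47) and 2.38 (2.06 to 2.76). The stabilin genes stab1 and stab2, scavenger receptors of venous and lymphatic endothelium, were called lower, with 82.2 CPM at 6 dpw and 239.8 CPM at 4 dpw for stab2 and a ratio of 0.343 (0.274 to 0.426). The endothelial junction gene cdh5 had 1371 CPM at 6 dpw and 986 CPM at 4 dpw, short of the call. In mural-like cells 4 of 6 fibrillar collagen genes were lower (3.55% of all genes), such as col1a1a at 572 CPM at 6 dpw and 1298 CPM at 4 dpw. The 10 fibroblast markers summed to 3140.4 CPM at 6 dpw and 7084 CPM at 4 dpw in these cells, and their part in the collagen values was not tested. By size hamp, the gene of the iron hormone hepcidin, had 56.1 CPM at 6 dpw and 367 CPM at 4 dpw, a ratio of 0.153 (0.113 to 0.203).

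Lymphocytes differed in few genes. In T or NK cell-like cells, with 1210 cells at 6 dpw and 896 at 4 dpw, 29 of 3050 tested genes were called higher (0.951%) and 33 lower (1.08%). Of 16 T cell and lymphocyte genes only il13, a type 2 cytokine gene, was called, with 21.5 CPM at 6 dpw and 68.6 CPM at 4 dpw, a ratio of 0.313 (0.236 to 0.411). It was also a leading gene of unnamed cluster 29, of 51 cells at 6 dpw and 47 at 4 dpw, and the part of such cells was not tested.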

How the data were processed

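The authors counted UMIs per gene and cell with Cell Ranger 6.1.2 from libraries of the 10x 3' chemistry version 3.1, and deposited these counts for called cells without normalization. The submitters' processing notes name GRCz11 and Seurat 4.3.0. The files hold 25432 genes, of which 1244 share their symbol with another and were kept apart by ID. Each wound is 1 library of 3 pooled fish, and no file was left out. No doublet caller was run and no doublets were removed.

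Cells passing the authors' limits were clustered in R 4.3.3 (Seurat 5.3.0, sctransform 0.4.2). Each library was transformed with the mitochondrial share regressed out. The libraries were integrated on 3500 variable genes less the list genes that are not markers (2951 left) and split into 36 clusters (17 dimensions, resolution 1). List genes that are also markers, such as acta2, tagln and col1a1a, were not left out. Levels of such genes in the class they name are therefore partly set by the naming. Clusters were named for the class that scored most markers (3 or more), where a marker scored if found in 10% or more of the cells and 2-fold above the rest. Ties stayed unnamed, as did clusters whose leading genes held more markers of another class. Shallow clusters without a marker of their class among the leading genes were left unnamed too. There were 14 marker classes with 156 markers (149 found) and 35 gene lists with 1058 genes (991 found). The members and lists were chosen with earlier results of these data known.

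UMIs were summed per library over the tissue and per class and given as CPM, with exact conditional intervals for ratios and Clopper-Pearson intervals for shares. A floor of 3 UMIs stands in for lower counts when genes are ranked. Named are list members and, by size, the top 10 and bottom 10 ratios of the tissue and the main classes (top and bottom 5 of the others), at 100 UMIs or more in the higher library, leaving out genes with at least 25% of their UMIs in 1 cell or higher in another named class. The split of a tissue ratio replaces either the class shares of UMIs or the class levels by those of 6 dpw. Alternatives were TMM scaling (edgeR 4.0.16), other filters, a clustering with the list genes kept (40 clusters), one without integration (2000 variable genes, 1778 used, 30 components, 15 neighbours, 36 clusters), cell-wise names and leaving out the top cell. The other steps used scanpy 1.11.5, leidenalg 0.10.2, pandas 2.3.3, scipy 1.17.1 and numpy 2.4.6 under Python 3.11.15, and matplotlib 3.10.9 drew the plots. The scripts were tested on simulated data.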

Additional observations from a re-analysis of the deposited data

Results flagged for a closer look

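The gene igf2a, an insulin-like growth factor, went opposite ways in keratinocyte-like and fibroblast-like cells. In keratinocyte-like cells it had 3.43 CPM at 6 dpw and 7.19 CPM at 4 dpw, a ratio of 0.477 (0.355 to 0.640), and in fibroblast-like cells 13.04 CPM at 6 dpw and 4.36 CPM at 4 dpw, a ratio of 2.99 (2.29 to 3.94). The difference between both classes was not tested, since each class has 1 library per time, and 1 cell held 10.0% of the UMIs in keratinocyte-like and 10.5% in fibroblast-like cells.

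Cells above the upper limits of UMIs or genes, which the comparisons above leave out and only a setting given with the limits includes, held a scpp7 level of 13099.5 CPM at 6 dpw and 1000.59 CPM at 4 dpw, both above the level of the kept cells of the same library, 3403 CPM at 6 dpw and 275 CPM at 4 dpw. The same cells had col10a1a at 5176 CPM at 6 dpw and 245 CPM at 4 dpw, and fn1b at 217 CPM at 6 dpw and 1901 CPM at 4 dpw.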

How the results depend on the processing

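With 1 library per time, counting error is the only error that could be given, and differences between fish, wounds, punches or preparations cannot be told apart from the time point. No paired analysis was possible because each group is 1 library. The unwounded skin was scraped off and not punched, so its values are context only. Chosen after seeing the data were 5 settings: no upper limits, leaving out the gonadal-type and muscle-type clusters, leaving out unnamed clusters 7 and 17, counting the cluster with jac4 as keratinocyte-like, and leaving out cluster 12.

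Called genes grew with looser rules. At a minimum of 10 UMIs they were 2809 in the tissue (1352 at 100 UMIs), 1820 in keratinocyte-like (361), 2174 in fibroblast-like (583), 1230 in macrophage-like (203) and 661 in neutrophil-like cells (74), and at 1.5-fold they were 3522, 1321, 1554, 635 and 165 in the same order. Keeping keratinocyte-like cells with fewer than 2 markers of other classes left 149 cells at 6 dpw and 63 cells at 4 dpw with 65 called genes, and too few cells of the other main classes for a value. The remaining 22 alternative counts stayed within 1.5 times.

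Of the ratios of shares, 51 moved by less than their limits, 12 moved and 8 turned round. Keratinocyte-like cells had 1.52 without integration and 1.52 with cell-wise names, 1.94 at a mitochondrial limit of 10% and 1.46 with the jac4 cluster. Fibroblast-like cells had 1.15 with all genes clustered, and their ratio turned to 0.977 at that mitochondrial limit and to 0.991 at 1000 UMIs. Macrophage-like cells had 0.349 with cell-wise names and 0.354 at 1000 UMIs, neutrophil-like cells 0.235 with cell-wise names. Without integration mural-like cells had 0.510, a class that there includes the 66 gonadal-type cells of 4 dpw beside 2 clusters with ratios of 0.738 and 0.473. In the same setting mucous cell-like cells had 1.36 and superficial keratinocyte-like cells 2.52, and the ratio turned for pigment-like (1.16) and basal keratinocyte-like cells (0.705). That basal group includes the jac4 cluster, of 40 cells at 6 dpw and 489 at 4 dpw. Its other cluster had a ratio of 1.46 (1.29 to 1.65). With cell-wise names the ratio turned for T or NK cell-like (0.974), red blood cell-like (0.755), pigment-like (1.23) and mucous cell-like cells (0.587), and glial-like cells had 0.441 at 1000 UMIs. The causes were not tested.

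Named genes gave 578 values under TMM scaling, where called genes could not turn, 375 without integration and 575 without the top cell. Of these 1528 values 1509 kept their direction, 1406 were still past 2-fold and 19 turned round, none of them under TMM. Without integration these were agr2 (1.197), col10a1a (2.15) and col10a1b (1.95) in keratinocyte-like cells, aldoab (1.25) and c1qc (1.12) in fibroblast-like cells, cldnb (0.566), col5a2a (0.695), icn2 (0.626), krt5 (0.783), krt91 (0.983) and pkp3a (0.979) in macrophage-like cells, and ccl35.1 (0.619), cst14b.2 (1.07) and krt91 (0.924) in neutrophil-like cells. Without the top cell these were col10a1a (1.89) and col10a1b (2.30) in keratinocyte-like cells, mmp13a (ENSDARG00000012395, 0.391) in macrophage-like cells, and ccl25b (1.35) and thbs4b (2.31) in neutrophil-like cells.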

Other observations

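Few stress genes of fibroblast-like cells were called. In the list of immediate-early and heat shock genes 3 of 41 were called higher and 1 lower, near the 4.48% and 3.2% of all genes, with a median log2 ratio of 0.61 beside -0.03 for all genes. The AP-1 gene junbb had 274 CPM at 6 dpw and 106 CPM at 4 dpw, a ratio of 2.59 (2.45 to 2.74). Such genes are known to respond to dissociation of a tissue, and the part of handling in these values was not tested. In glycolysis and hypoxia the enolase gene eno1a was lower at 53.9 CPM at 6 dpw and 128 CPM at 4 dpw, a ratio of 0.421 (0.387 to 0.457), and gapdh, of the same pathway, had 4.47 CPM at 6 dpw and 10.4 CPM at 4 dpw, while the adrenomedullin genes adma and admb were higher, admb at 393 CPM at 6 dpw and 149.7 CPM at 4 dpw. The tendon gene tnmd, a marker of tendon and ligament fibroblasts, stood at 138 CPM at 6 dpw and 31.1 CPM at 4 dpw, a ratio of 4.43 (4.03 to 4.87), and the chemokine gene cxcl14 at 119.7 CPM at 6 dpw and 42.4 CPM at 4 dpw, a ratio of 2.82 (2.59 to 3.08).

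In the tissue the nitric oxide synthase gene nos2a had 163, 45.5, 22.8 and 85.4 CPM across unwounded skin, 2, 4 and 6 dpw, a ratio of 3.75 (3.52 to 3.99), and csf1b, a growth factor of macrophages, had 18.02 CPM at 6 dpw and 5.73 CPM at 4 dpw. The macrophage inflammation list held both genes as its higher members. At 6 dpw 85.4% of the nos2a UMIs and at 4 dpw 89.8% were in keratinocyte-like cells, so macrophages were not the main holder of nos2a. In glial-like cells apoeb, an apolipoprotein of lipid transport, was 4899 CPM at 6 dpw and 8535 CPM at 4 dpw, short of the call. In mucous cell-like cells agr1, of the anterior gradient family of secretory cells, was called higher at 122 CPM at 6 dpw and 36.2 CPM at 4 dpw.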
